A study of Mus musculus with 6 samples.

Results

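Platelet-derived growth factors (PDGFs) and their receptors were examined in macrophages grown in culture from the bone marrow of tumour-bearing mice. The 7 genes were taken by symbol from the deposited table of 17313 genes: the ligand genes Pdgfa, Pdgfb, Pdgfc and Pdgfd, the receptor genes Pdgfra and Pdgfrb, and the receptor-like gene Pdgfrl. All 7 had a row, and 6 of them were among the 13260 genes tested, Pdgfrl being too low. Each library was made from poly(A) RNA of C57BL/6 mice with floxed Hdac2 alleles that had received LLC1 cells, a Lewis lung carcinoma line, by vein, with marrow taken on day 20. The 3 WT libraries are from Hdac2fl/fl mice without Cre, and the 3 KO libraries from mice labelled Hdac2fl/fLysMCre, in which LysM-Cre acts in the myeloid lineage and cells of other lineages would keep Hdac2. The labels give no age or sex and do not say whether each library is a separate mouse. The p-values therefore measure only the spread between these libraries, part of which may be technical. Xist, described below, differed too widely between WT 1 and the other WT libraries for these to be repeats of the same RNA.

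PDGFs are secreted dimers that act mostly from 1 cell type on another. In most tissues macrophages, platelets and endothelial cells make the B chain, while fibroblasts, pericytes and smooth muscle cells carry the receptors, which are tyrosine kinases related to the macrophage receptor CSF1R. The A and B chains are secreted active once cut inside the cell, whereas the C and D chains carry an extra CUB domain that must be removed outside the cell. PDGF-AA binds the alpha receptor, PDGF-BB binds both receptors, PDGF-CC mainly the alpha and PDGF-DD mainly the beta receptor.

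The libraries were checked first. The deposited values, called scaled counts here, appear from their near-equal totals and gaps to be read counts per gene scaled to a common depth and rounded, with library totals from 5704313 to 5837994. Hdac2 stood at 534, 482 and 518 across WT and 392, 387 and 375 across KO, without overlap. The means were 511.3 and 384.7, so much Hdac2 RNA remained in KO. Reads from exons that are not deleted would still count, as would reads from cells that keep Hdac2. The source of the remaining reads was not tested. WT 1 stood apart from the other WT libraries: Xist, made only from an inactive X chromosome, read 5243, 0 and 74 across WT 1, WT 2 and WT 3 and 4726, 4997 and 3298 across KO, so without WT 1 the Xist difference and genotype cannot be told apart. Results are therefore given with all 6 libraries, without WT 1, and for KO against WT 1 alone, comparisons that share libraries. All 9 macrophage markers were present, with a summed level from 13046 to 13748 in WT and from 12430 to 12833 in KO. Of 20 mesenchymal and pericyte markers 19 had a row, and their summed level was 12544, 5922 and 5926 across WT and 16298, 14924 and 13269 across KO.

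The receptors and the C and D ligands were higher in the KO mean, Pdgfb was lower and Pdgfa was nearly level. With all 6 libraries, 0 of the 6 tested members passed at an adjusted p under 0.05 (limma, Benjamini-Hochberg over all genes), beside 0 of 13260 genes, or 0.0%. At an unadjusted p under 0.05 there were 4 members, 3 higher and 1 lower, and 3230 genes, or 24.4%. In 2 of the 6 members the KO libraries all exceeded the WT libraries, against 16.1% of all tested genes. Without WT 1, 3 members (Pdgfrb, Pdgfc and Pdgfd) passed as higher and none as lower, against 12.8% of genes passing as higher and 5.07% as lower. Against WT 1 alone the limma fit takes its spread from the 3 KO libraries and assumes that the lone WT library varies like them. There 0 members and 0 genes (0.0%) passed, with 0 members and 826 genes at an unadjusted p under 0.05, so for that comparison only the size of each difference is given below.

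**Figure D1:**
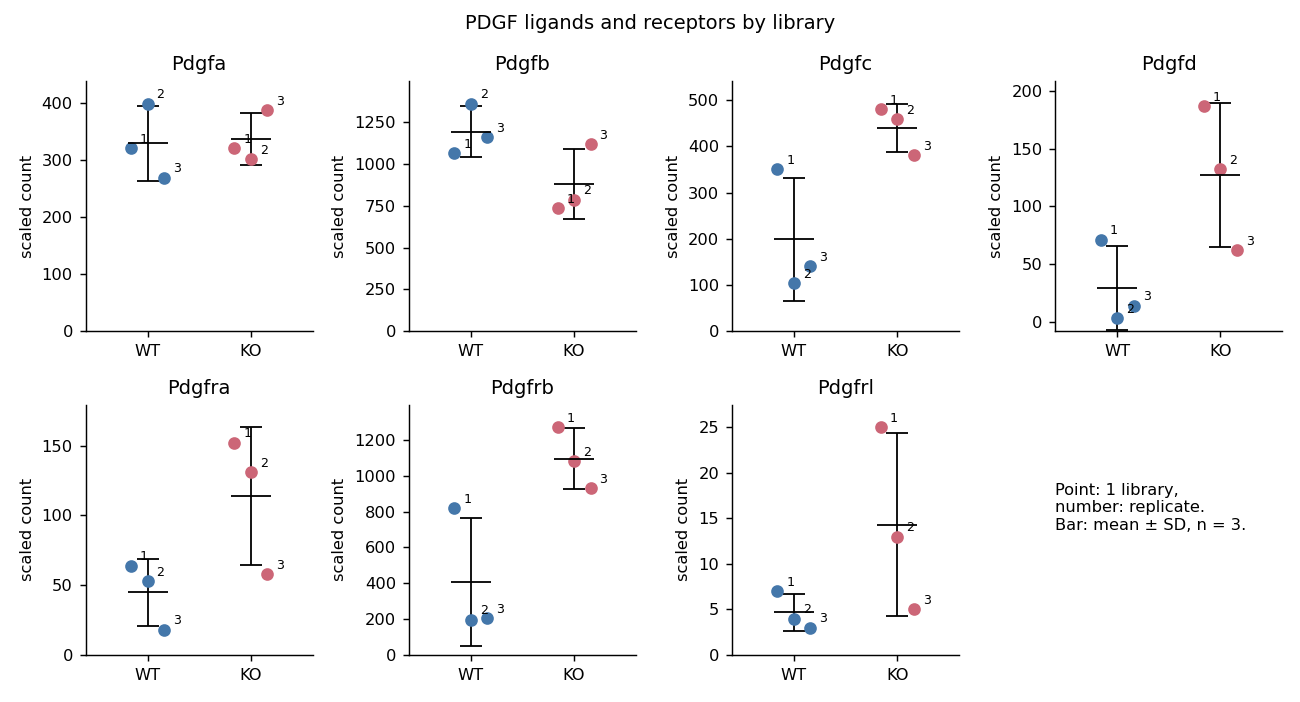
Scaled counts (vertical axis, linear, a separate scale for each gene) of the 7 members in each library, with the mean ± SD of 3 libraries per group. WT 1 is the highest WT point for Pdgfc, Pdgfd, Pdgfra, Pdgfrb and Pdgfrl and the lowest for Pdgfb, and the lower SD bar of Pdgfd in WT reaches below 0.

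Among the ligands, Pdgfb (ENSMUSG00000000489, chromosome 15, 79995874 to 80014977, minus strand, mm10), the B chain that recruits pericytes to vessels, was the most abundant. It stood at 1063, 1359 and 1158 scaled counts in WT and 735, 786 and 1117 across KO. KO 1 and KO 2 lay below every WT library, and KO 3 lay between WT 1 and WT 3. The means were 1193 ± 151 and 879 ± 207 (SD, n = 3 each), and the difference (KO less WT, in units of log2(value + 1) here and below) was -0.46 ± 0.18 (limma SE; adjusted p = 0.187). It was -0.54 without WT 1 (adjusted p = 0.113) and -0.30 against WT 1 alone. Without KO 3 it was -0.64 (adjusted p = 0.205).

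Pdgfa (ENSMUSG00000025856, chromosome 5, 138976014 to 138997370, minus strand), the A chain, which signals through the alpha receptor to mesenchymal progenitors, was at 321, 399 and 269 across WT and 321, 302 and 388 across KO. All KO libraries lay within the WT range, and the means were 330 ± 65.4 and 337 ± 45.2 (SD, n = 3). The difference was 0.04 ± 0.17 (SE; adjusted p = 0.907), and it turned to -0.09 without WT 3 and to -0.06 without KO 3. The long RNA gene 6330403L08Rik lies on the opposite strand and shares 813 of the 3119 exonic bases of Pdgfa. It stood at 207, 219 and 173 across WT and 199, 192 and 257 across KO. Whether reads were counted by strand is not stated in the labels, so reads of the shared stretch cannot be told apart. Genes without a row here also lie opposite exons of Pdgfc (147 shared bases, Gm16000) and Pdgfra (456, Gm42802, and 166, Gm42803).

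Pdgfc (ENSMUSG00000028019, chromosome 3, 81036416 to 81214040, plus strand), a CUB-domain ligand of the alpha receptor, was at 351, 104 and 141 across WT and 480, 459 and 381 across KO. The groups did not overlap, but WT 1 lay close to KO 3 and far above WT 2 and WT 3. The means were 199 ± 133 and 440 ± 52.2 (SD, n = 3), a KO mean 2.21 times the WT mean. The difference was 1.34 ± 0.43 (SE; adjusted p = 0.16) with all libraries. It was 1.85 ± 0.16 without WT 1, where it passed (adjusted p = 0.00148), and 0.32 against WT 1 alone.

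Pdgfd (ENSMUSG00000032006, chromosome 9, 6168584 to 6378850, plus strand), the CUB-domain ligand of the beta receptor, varied most. It was at 71, 3 and 14 across WT and 187, 132 and 62 across KO, and its highest library was 62.3 times its lowest. KO 3 lay below WT 1, so the groups overlapped, while WT 2 and WT 3 lay below every KO library. The means were 29.3 ± 36.5 and 127 ± 62.7 (SD, n = 3). The difference was 2.84 ± 1.05 (SE; adjusted p = 0.177), 3.91 without WT 1 (adjusted p = 0.0156) and 0.69 against WT 1 alone. The lowest values rest on few reads.

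The start regions of Pdgfa, Pdgfc and Pdgfd differ in base composition. They are shown because the title of the study names SP1, a factor known to bind the GC box GGGCGG. RefSeq windows of 250 bases before a start (GRCm38.p6) were matched for 4 of the 7 members. None was matched for Pdgfb, Pdgfrb or Pdgfrl, so the most abundant ligand is not covered. GGGCGG was sought on both strands, with the EGR1 motif GCGGGGGCG and the TATA motif TATAAA, and the capitals below mark any match (CCGCCC is GGGCGG on the other strand). A Pdgfa window (chr5:138994945-138995194, minus strand) had 72.4% G or C, more than 93.6% of 32851 windows, and held 2 GC boxes in the 30 bases shown (chr5:138995017-138995046). It lies inside the span of the gene given above, and 93 of its bases are exonic. The Pdgfc and Pdgfd windows lie before their genes and hold 0 exonic bases. The Pdgfc window (chr3:81036166-81036415, plus strand) had 50.8% G or C and the Pdgfd window (chr9:6168236-6168485, plus strand) 53.6%, near the median of 52.4%, and neither held a GC box.
Pdgfa: gcccagcccCCGCCCtCCGCCCcttccgtc
Pdgfc: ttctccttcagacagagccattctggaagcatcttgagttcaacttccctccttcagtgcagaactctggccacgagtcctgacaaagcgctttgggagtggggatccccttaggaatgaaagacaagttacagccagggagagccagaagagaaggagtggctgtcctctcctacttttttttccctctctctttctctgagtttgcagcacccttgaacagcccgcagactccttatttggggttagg
Pdgfd: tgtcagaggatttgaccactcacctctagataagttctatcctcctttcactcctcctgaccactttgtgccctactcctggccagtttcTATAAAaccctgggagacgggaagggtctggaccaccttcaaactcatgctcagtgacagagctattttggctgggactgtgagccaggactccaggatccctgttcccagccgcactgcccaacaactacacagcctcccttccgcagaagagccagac

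GGGCGG occurred in 32.7% of all windows, GCGGGGGCG in 2.57% and TATAAA in 12.4%. Another start of Pdgfa (chr5:138994282-138994531) had 1 GC box and 86 exonic bases. The Pdgfra window (chr5:75152001-75152250, plus strand) had no GC box and 0 exonic bases. Of the member windows, only that of Pdgfd held TATAAA, starting 160 bases before its start, and none held GCGGGGGCG. The motifs did not overlap each other in these windows. A match is a description of the letters, and binding was not measured.

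The receptor Pdgfrb (ENSMUSG00000024620, chromosome 18, 61045150 to 61085061, plus strand), which pericytes and fibroblasts use to respond to the B and D chains, was at 818, 196 and 204 across WT and 1269, 1082 and 931 across KO. All KO libraries lay above all WT libraries, and WT 1 lay nearer to KO 3 than to WT 2 or WT 3. The means were 406 ± 357 and 1094 ± 169 (SD, n = 3), a ratio of 2.695 that became 5.47 against WT 2 and WT 3 and 1.34 against WT 1. The difference was 1.76 ± 0.56 (SE; adjusted p = 0.158) with all libraries and 2.43 ± 0.13 without WT 1 (adjusted p = 0.000479). It was 0.41 against WT 1 alone.

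Pdgfra (ENSMUSG00000029231, chromosome 5, 75152292 to 75198215, plus strand), the alpha receptor and a marker of mesenchymal progenitors, was far lower. It stood at 64, 53 and 18 across WT and 152, 131 and 58 across KO, with KO 3 between WT 2 and WT 1. The means were 45 ± 24.0 and 114 ± 49.3 (SD, n = 3), and the difference was 1.39 ± 0.57 (SE; adjusted p = 0.206). It was 1.73 without WT 1 (adjusted p = 0.0998), 0.84 without WT 3 (adjusted p = 0.393) and 0.71 against WT 1 alone.

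Pdgfrl (ENSMUSG00000031595, chromosome 8, 40926212 to 40990785, plus strand), which encodes a secreted protein resembling the outer part of a PDGF receptor, was at 7, 4 and 3 across WT and 25, 13 and 5 across KO. KO 3 lay within the WT range, and only 2 libraries reached the value of 10 that the filter asks of 3. Without the filter its difference was 1.26 (adjusted p = 0.277). Its level is too low here to set the groups apart.

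**Figure D2:**
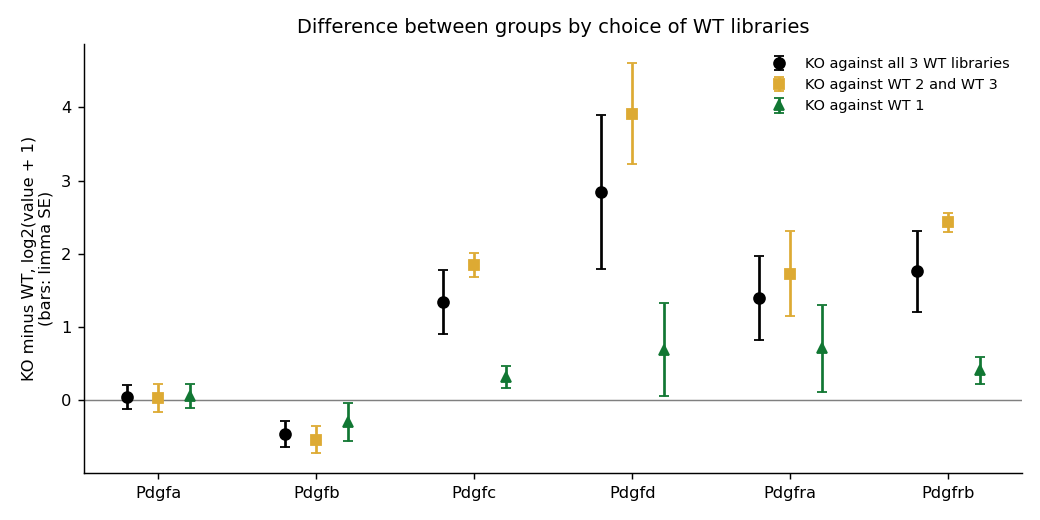
KO less WT difference in log2(value + 1) (vertical axis, bars limma SE) for the 6 tested members with all WT libraries (circles), WT 2 and WT 3 (squares) or WT 1 alone (triangles), in sets that share libraries; the bars of the triangles rest on the spread of the KO libraries. For Pdgfrb the values are 1.76, 2.43 and 0.41, and for Pdgfa all 3 lie near 0.

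Levels of different genes were compared per 1000 exonic bases. In WT, Pdgfb was highest at 287 ± 36.3 scaled counts per kb (SD, n = 3), followed by Pdgfa at 106 ± 21.0, Pdgfrb at 74.1 ± 65.1 and Pdgfc at 39.0 ± 26.2. Pdgfd followed at 9.3 ± 11.6, Pdgfra at 4.49 ± 2.40 and Pdgfrl at 1.49 ± 0.67. Only Pdgfb was clear of the next gene in WT, and every other pair of neighbours in this order overlapped between libraries. In KO, Pdgfb at 211 ± 49.8 overlapped with Pdgfrb at 200 ± 30.9 per kb, which moved from the third to the second place. Next came Pdgfa at 108 ± 14.5, Pdgfc at 86.5 ± 10.3 and Pdgfd at 40.3 ± 19.9, each clear of its neighbours, and then Pdgfra at 11.3 ± 4.92 and Pdgfrl at 4.59 ± 3.22, which overlapped. Over all libraries Pdgfb lay above 93.6% of the tested genes per kb, Pdgfrb above 77.1%, Pdgfa above 67.9%, Pdgfc above 47.4%, Pdgfd above 24.5% and Pdgfra above 10.3%. The Pdgfra length, 10024 bases, joins the exons of 9 transcripts, so its level per kb would be higher if shorter forms prevailed.

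The summed ligand level differed little between the groups. Its make-up differed more, but was close in WT 1 and KO 3. The 4 ligands summed to 441 ± 40.4 scaled counts per kb in WT and 446 ± 36.6 in KO (SD, n = 3). The Pdgfb share of that sum was 56.8%, 68.6% and 70.2% in WT and 40.8%, 45.2% and 55.1% in KO, every KO library below every WT library. The Pdgfc share was 15.3%, 4.29% and 6.98% in WT and 21.8%, 21.6% and 15.4% in KO, with WT 1 and KO 3 nearly equal. The Pdgfd share was 5.0%, 0.2% and 1.12% against 13.7%, 10% and 4.03%, and KO 3 lay below WT 1. Pdgfa took 23.8% ± 2.7 in WT and 24.2% ± 1.22 in KO. These shares are descriptions without a test.

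The receptors summed to 156, 41.1 and 39.0 per kb in WT and 247, 211 and 176 across KO. Set against the ligands, receptor RNA per kb was 0.346, 0.0863 and 0.0984 of ligand RNA in WT and 0.57, 0.504 and 0.361 in KO. WT 1 was nearly level with KO 3. Most of the receptor sum was Pdgfrb, whose level per kb was 6.77 to 23.4 times that of Pdgfra in WT and 15.1 to 29.4 times in KO.

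**Figure D3:**
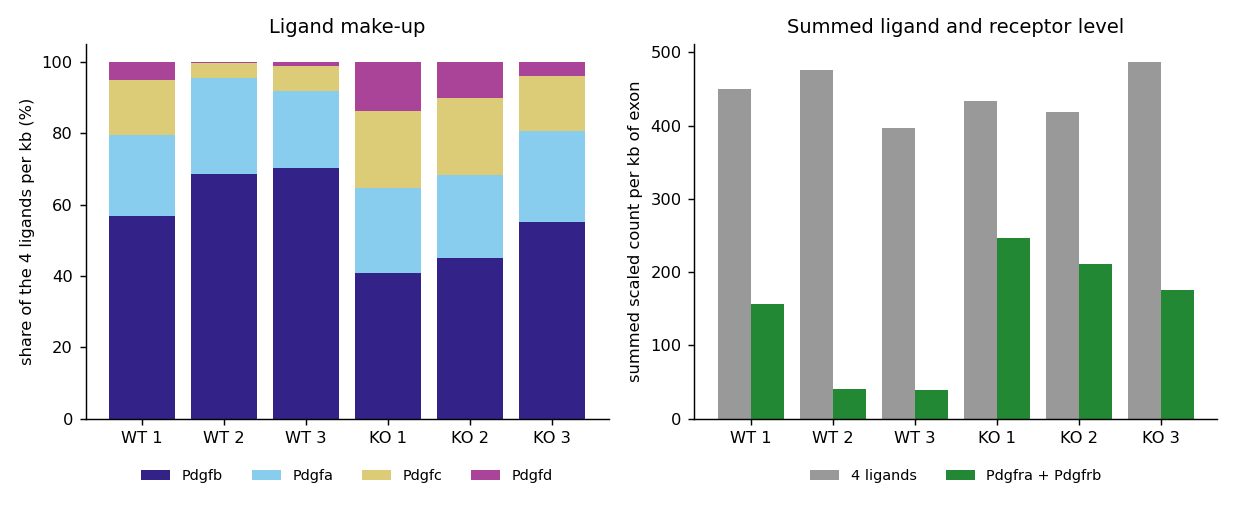
Left, share of each ligand in the summed level of the 4 ligands per kb of exon (percent, stacked bars); right, summed scaled counts per kb of the 4 ligands (grey) and of Pdgfra with Pdgfrb (green), for each library. The grey bars lie between 397 and 487 in all libraries, while the green bars are lowest in WT 2 and WT 3.

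Pdgfrb and Pdgfc moved over the libraries with markers of mesenchymal cells, and their part in the result was not tested. All 16 tested mesenchymal and pericyte markers were higher in the KO mean, beside 49.1% of all tested genes, and their median difference was 1.29, against -0.005 over all tested genes. At an unadjusted p under 0.05, 15 were higher, beside 14.7% of all tested genes, and 0 passed the limma test after adjustment. In 15 of the 16, WT 1 lay above WT 2 and WT 3, as it did in 32.7% of all tested genes. Pdgfrb, the summed markers and Pdgfc all had KO 1 highest, then KO 2, KO 3 and WT 1. The sum is weighted to its most abundant genes, which are collagens, and the single markers did not all share this order. Mcam had KO 3 above KO 2, and some other markers were highest in KO 3. Notch3, a pericyte receptor, was at 255, 80 and 56 across WT and 452, 335 and 322 across KO, and Mcam, a pericyte adhesion molecule, at 263, 50 and 81 and at 418, 365 and 407. Twist1, a mesenchymal transcription factor, was at 46, 5 and 10 and at 97, 82 and 63, and Cxcl12, a stromal chemokine, at 400, 194 and 132 and at 1699, 1094 and 413. The median of the list was 1.79 without WT 1 and 0.37 against WT 1 alone. Without WT 1, 14 markers passed as higher, beside 12.8% of all tested genes. RNA from a bulk library does not tell more cells of a type from more RNA per cell.

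Markers of platelets and endothelium, known sources of PDGF, were read beside the ligands. Pf4, a platelet and megakaryocyte chemokine that macrophages also express, was at 308, 304 and 274 across WT and 272, 283 and 284 across KO, and only 4 of 7 megakaryocyte markers had a row. Their summed level was 294 to 324 in WT and 298 to 306 in KO. Nearly all of that sum was Pf4, and the other rows were low, with Ppbp at 11, 5 and 10 across WT and 8, 14 and 10 across KO. The sum therefore says little about platelets. Of 8 endothelial markers 7 had a row and 4 stayed below 10 in every library. Of the 3 tested, 2 were above WT in the KO mean and the median difference was 0.48. At an unadjusted p under 0.05, 0 were higher and 1 lower, beside 14.7% and 9.68% of all tested genes. Cdh5, the endothelial cadherin, was at 44, 15 and 16 across WT and 42, 39 and 29 across KO, and the VEGF receptor gene Kdr at 124, 69 and 63 and at 116, 99 and 129. Vwf, the von Willebrand factor gene, went the other way, at 626, 1374 and 790 and at 316, 404 and 640. Vwf alone of the 3 had the libraries in the order of Pdgfb. That order is not particular to it, since Pcdh7 and Folr2, described below, had it too. The part of endothelial cells in the Pdgfb values was not tested. Among 9 macrophage markers 2 were higher in the KO mean and the median was -0.17 (-0.093 under cyclic loess, where Csf1r turned to 0.04), with Cd68 at 1082, 1181 and 1082 across WT and 962, 971 and 1022 across KO and Adgre1, the F4/80 gene, at 2222, 2493 and 2267 and at 1946, 2035 and 2094. At an unadjusted p under 0.05, 6 were lower, beside 9.68% of all tested genes, and 0 passed the limma test after adjustment. Osteoblast markers (4 of 6 with a row) summed to 199 to 286 in WT and 265 to 450 in KO. Most of that sum was Runx2, at 245, 187 and 197 across WT and 292, 251 and 238 across KO. Of the others, 1 of 7 neutrophil, 1 of 6 lymphocyte and 2 of 5 epithelial markers had a row: S100a8 was at 20, 23 and 26 across WT and 15, 9 and 12 across KO, and Krt19, a keratin, at 22, 10 and 1 and at 95, 73 and 75.

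**Figure D4:**
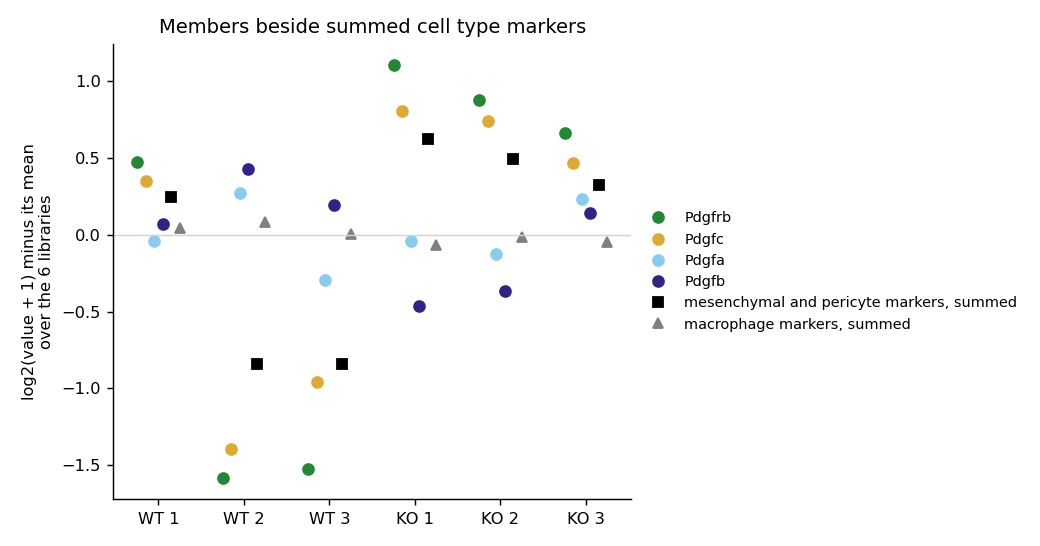
log2(value + 1) of 4 members and of 2 summed marker lists in each library, less its own mean over the 6 libraries (vertical axis). Pdgfrb and Pdgfc share with the mesenchymal markers (black squares) low points in WT 2 and WT 3, while Pdgfb is highest in WT 2 and lowest in KO 1.

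The nearest profiles were sought among 10632 genes, by the root mean square difference between log2 profiles over the 6 libraries, each centred on its own mean. Nearest to Pdgfrb was Lamb1, a laminin chain, at 841, 204 and 205 across WT and 1254, 1084 and 944 across KO, with a difference of 0.0246, followed by Ddah1 (0.0425) and Heg1 (0.0453). Nearest to Pdgfc were Fkbp10, a chaperone of collagen (0.0658), Nedd4 (0.0672) and Atp2b4 (0.0784). Pdgfb had as neighbours Pcdh7 (0.0427), at 1646, 2233 and 1904 across WT and 1183, 1217 and 1708 across KO, the folate receptor gene Folr2 (0.0476) and the histone methyltransferase gene Dot1l (0.0528). The lower and more variable genes had looser neighbours, with Nexn (0.203), Tll1 (0.222) and Lrch2 (0.231) for Pdgfd and Adamts1 (0.264), Gpx3 (0.303) and Tiam2 (0.303) for Pdgfra. For Pdgfa they were Tmem170 (0.0621), Dph7 (0.0655) and Rwdd2b (0.0684). Among the members themselves, Pdgfa with Pdgfb (0.293) and Pdgfc with Pdgfrb (0.294) were the closest pairs, and Pdgfb with Pdgfd the farthest (2.2). The measure is not scaled by spread, so genes that vary little come out close whatever their order. Pdgfc and Pdgfrb ranked the libraries in the same order, while Pdgfa and Pdgfb did not. In WT 3 Pdgfa was at its lowest, and Pdgfb lay above every KO library.

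Proteins that process or bind PDGFs outside the receptor included the plasminogen activators, which free the C and D ligands from their CUB domains. Plat, the tissue activator known to act on PDGF-CC, was at 123, 27 and 29 across WT and 175, 143 and 149 across KO, without overlap. Plau, urokinase, known to act on PDGF-DD, was at 1567, 1730 and 1511 across WT and 1179, 1167 and 1500 across KO, lower without overlap, though KO 3 nearly reached WT 3. Thbs1, a secreted matrix glycoprotein, was at 3866, 2119 and 2141 and at 4234, 4098 and 3899. Ltbp1, known for holding latent TGF-beta and not PDGF, was at 297, 69 and 65 and at 705, 580 and 432. The 12 genes of this list include Ltbp1, so not all are known to process or bind PDGFs. Of the 12 genes 9 were above WT in the KO mean and the list median was 0.20. At an unadjusted p under 0.05, 5 were higher and 2 lower, beside 14.7% and 9.68% of all tested genes, and 0 passed after adjustment. Without WT 1, 5 of 12 passed as higher and 0 as lower, beside 12.8% and 5.07% of all tested genes.

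Genes that carry the signal inside the cell gave shares near those of all tested genes, of which 14.7% were higher and 9.68% lower at an unadjusted p under 0.05. Of 30 adaptors and effectors 12 were above WT in the KO mean and the list median was -0.02 (0.02 under cyclic loess), 4 higher and 4 lower at an unadjusted p, and 0 passing after adjustment. Grb10, an adaptor that binds activated receptor kinases, was at 548, 176 and 163 across WT and 1121, 932 and 723 across KO. Plcg1, a phospholipase recruited by both receptors, was at 509, 584 and 486 and at 642, 619 and 613. Rasa1, the RAS GTPase activator that docks on the beta receptor, was at 1293, 1282 and 1583 and at 1063, 1109 and 921, and the kinase gene Mapk3 at 896, 977 and 905 and at 816, 816 and 846. These 4 were named for the smallest p of the list. Over the list 4 of 30 genes (13.3%) were higher and 5 (16.7%) lower without overlap, beside 16.1% and 13.4% of all tested genes.

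The 16 genes that limit receptor signalling lay on both sides. Of them 6 were above WT in the KO mean, and the list median was -0.04 (0.02 under cyclic loess). At an unadjusted p under 0.05, 4 were higher and 3 lower, beside 14.7% and 9.68% of all tested genes. After adjustment 0 passed. Spry1, an inhibitor of RAS signalling, was at 56, 16 and 15 across WT and 157, 105 and 84 across KO, and Socs3, an inhibitor of cytokine signalling, at 75, 24 and 19 and at 185, 156 and 128. Ptprj, a phosphatase that acts on the beta receptor, was at 1591, 1731 and 1635 and at 1352, 1413 and 1482, and Spred1, another RAS pathway inhibitor, at 1582, 1578 and 1630 and at 1352, 1334 and 1457. Without WT 1, 4 of the 16 passed as higher and 2 as lower, beside 12.8% and 5.07% of all tested genes.

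Relatives of the family gave mixed values. Pgf, the placental growth factor of the VEGF branch, was at 62, 22 and 15 across WT and 101, 92 and 76 across KO, and Vegfb at 240, 240 and 202 and at 255, 265 and 262, both without overlap. The receptor genes Kdr, at 124, 69 and 63 and at 116, 99 and 129, and Flt4, at 16, 2 and 6 and at 18, 19 and 19, were higher in the KO mean, and the groups overlapped for Kdr but not for Flt4. Of 8 tested VEGF family genes 6 were above WT in the KO mean and the list median was 0.32 (0.17 under cyclic loess). At an unadjusted p under 0.05, 1 was higher, beside 14.7% of all tested genes. Csf1r, the macrophage receptor of the same kinase class as the PDGF receptors, was at 2694, 2888 and 2687 across WT and 2504, 2590 and 2680 across KO, a difference of -0.09 that was 0.04 under cyclic loess. Its ligand gene Csf1 was at 1470, 707 and 721 and at 1653, 1574 and 1456, and the other ligand Il34 at 11, 7 and 3 and at 15, 14 and 18. Kitl, the ligand of KIT, was at 680, 540 and 806 and at 431, 448 and 353, lower without overlap. Of 5 tested genes in that list 2 were above WT in the KO mean and the list median was -0.09 (0.04 under cyclic loess). At an unadjusted p under 0.05, 2 were higher and 1 lower, beside 14.7% and 9.68% of all tested genes.

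Early genes known from fibroblasts given PDGF, which macrophages also switch on through other receptors, did not share a direction. Egr1 was at 332, 284 and 213 across WT and 365, 348 and 471 across KO and Ier3 at 163, 78 and 67 and at 185, 205 and 197, both higher without overlap. Egr2 was at 463, 839 and 768 and at 252, 247 and 406, lower without overlap, and Fos at 391, 610 and 552 and at 216, 203 and 441, with KO 3 above WT 1. Of 13 tested genes 8 were above WT in the KO mean and the list median was 0.07. At an unadjusted p under 0.05, 2 were higher and 3 lower, beside 14.7% and 9.68% of all tested genes. In each of these lists 0 genes passed the limma test after adjustment with all 6 libraries.

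**Figure D5:**
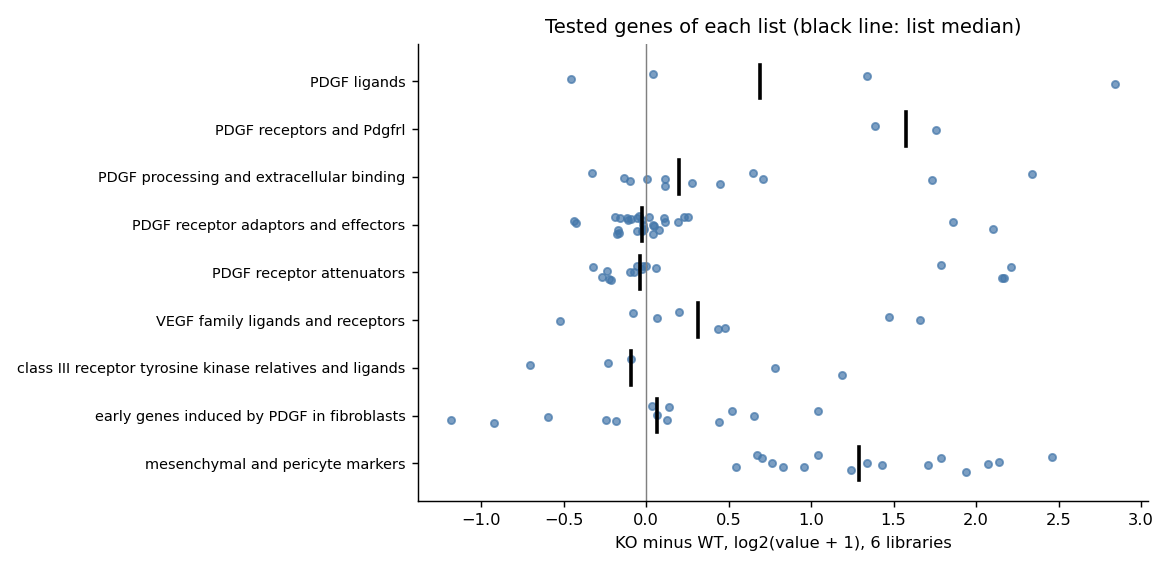
KO less WT difference in log2(value + 1) with all 6 libraries (horizontal axis) for the tested genes of each list (points) and the list median (black line). The mesenchymal and pericyte markers all lie above 0, with a median of 1.29, while the adaptors and effectors centre on -0.02.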

How the data were processed

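RNA-seq of 6 libraries was deposited as 1 table. The submitters' processing notes name DESeq2 1.36.0, featureCounts 2.0.3, STAR 2.7.10a, Trimmomatic 0.39 and Picard 2.27.4 and the build mm10, without their roles. The values as deposited were taken as a score, apparently a normalized count rounded to whole numbers; how the authors made them is not stated in the labels, and this reading comes from the values: totals were nearly equal, and 6, 17 and 29 never occurred in WT 2, as scaling and rounding leave. Because these are not raw reads, count models and counting intervals were not used.

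A gene was kept when 3 or more libraries reached 10. Group was the only term in limma 3.58.1 (R 4.3.3, trended prior variance), fitted to log2(value + 1). Tests were two-sided, and Benjamini-Hochberg adjustment ran over every gene kept, with a threshold of 0.05. This pseudocount understates the change of low genes. The procedure was tested on simulated data with independent noise for each gene, a setting without a library that stands apart as WT 1 does. Exonic lengths are unions of exons in GENCODE M21, found for 17297 genes. Tables were handled with Python 3.11.15 and pandas 2.3.3.

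The members, the 16 gene lists and the alternatives were chosen with earlier results of these data known. Named genes are the members, Hdac2, Xist, up to 4 genes of each list with the smallest p, the overlapping gene of Pdgfa, and the 3 nearest profiles of each tested member (mean value at least 50, no predicted models). 6330403L08Rik was named after its overlap was seen.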

Additional observations from a re-analysis of the deposited data

How the results depend on the processing

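The results depend mainly on WT 1. The count of members passing was 0 with all libraries and from 0 to 3 when 1 library was left out, and the count of genes from 0 to 2363, both highest without WT 1. Members without overlap numbered 2, and from 2 to 5 when 1 library was left out, with 5 without WT 1 and also without KO 3. Groups without overlap are more frequent with fewer libraries: they made up 29.5% of all tested genes with 6 libraries, 49.7% without WT 1 and 50.6% without KO 3. Over 16 alternatives (15 for Pdgfd and Pdgfra, which a mean value of at least 100 removes), Pdgfrb ranged from 0.41 to 2.43, Pdgfc from 0.32 to 1.85, Pdgfd from 0.69 to 3.91, Pdgfra from 0.71 to 1.81 and Pdgfb from -0.64 to -0.30, each with its sign kept. Adjusted p ranged from 0.000479 to 0.79, 0.00148 to 0.79, 0.0156 to 0.863, 0.0998 to 0.858 and 0.113 to 0.862 for these genes, the highest in each case from the fit against WT 1 alone, whose spread comes from the KO libraries. Pdgfa turned to -0.0948 without WT 3 and -0.0635 without KO 3, and reached 0.189 without WT 2. An adjusted p threshold of 0.1 added no gene.

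Same-numbered WT and KO libraries had deviations from their group means that correlated at 0.534, -0.364 and 0.0239. With 3 libraries per group, each centred on its group mean, these correlations cannot settle whether the numbers pair the libraries. With the replicate block 0 members and 0 genes passed, and WT 1 correlated best with KO 1, WT 2 with KO 3 and WT 3 with KO 2.

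Of the other 62 named genes, 36 passed without WT 1 and none elsewhere. Without WT 1, 12.8% of all tested genes passed as higher and 5.07% as lower. Most of the 62 were named for the smallest p of their list or a near profile in these same libraries. Their count is therefore no separate result. Signs turned for Csf1r (0.0406), Ppbp (-0.163), Tmem170 (-0.0398), Dph7 (-0.00454) and Rwdd2b (-0.0207) under cyclic loess. Against WT 1 alone they turned for Kdr (-0.12, from 0.481 with all libraries and 0.781 without WT 1), Cdh5 (-0.273, from 0.692 and 1.17), Xist (-0.296, from 5.87 and 8.95) and Ppbp (-0.0729). Leaving out a library turned Ppbp (-0.0101, WT 2), 6330403L08Rik (-0.0234, KO 3), Tmem170 (-0.0204, WT 3), Dph7 (-0.0745, WT 3, and -0.0184, KO 3) and Rwdd2b (-0.0638, WT 3, and -0.0467, KO 3). For these 5 genes the highest values with a library left out were 0.49 for Ppbp, 0.186 for 6330403L08Rik, 0.22 for Tmem170, 0.158 for Dph7 and 0.133 for Rwdd2b. The cause was not tested. Without division by length Pdgfd and Pdgfra exchanged the fifth and sixth places. Depth limits Pdgfrl and the low values of Pdgfd and Pdgfra.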

Other observations

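Chromosomal neighbours of the members, named after their values were seen, gave the following values. Casp12, 795551 bases before Pdgfd on the same strand, had the libraries in the same order as Pdgfd, with 84, 13 and 25 scaled counts across WT and 164, 120 and 58 across KO (log2 difference 1.75, limma adjusted p = 0.205). Dync2h1, nearer to Pdgfd on its other side at 549652 bases, did not share that order, with 249, 68 and 216 across WT and 234, 245 and 57 across KO (log2 difference -0.05). Csf1r, 15536 bases after Pdgfrb on the same strand, had means of 2756 in WT and 2591 in KO, where those of Pdgfrb were 406 and 1094. Mtus1, 128 bases after Pdgfrl on the other strand, read 356, 292 and 371 across WT and 404, 382 and 282 across KO. Kit, after Pdgfra and a receptor kinase of the same class, was too low to test, with 4, 18 and 9 across WT and 4, 3 and 6 across KO.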
